A study of Homo sapiens with 60 samples.

Results

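The genes described here are 38 genes of pre-mRNA splicing control, taken by symbol from the 58395 gene identifiers of the count table: 14 SR proteins (SRSF1 to SRSF12, TRA2A and TRA2B), 6 kinases that phosphorylate them (CLK1 to CLK4, SRPK1 and SRPK2) and 18 hnRNPs (heterogeneous nuclear ribonucleoproteins). They were measured by poly(A) RNA sequencing in HEK293A, a human embryonic kidney cell line, in 60 libraries. Every library came from a clone in which TDP1 had been edited with CRISPR/Cas9. TDP1 is the enzyme that removes stalled topoisomerase 1 from DNA. The 3 clones are named C6, F7 and G6, and each is 1 clone of the knockout line. For 5 to 5.5 hours each clone was left untreated, or received 0.1% DMSO, 100 nM topotecan in 0.1% DMSO, 5 µM OL9-119 in 0.1% DMSO, or topotecan and OL9-119 together at the same doses (below, the combination, for which the label names no DMSO). Topotecan is a topoisomerase 1 poison, and OL9-119 is given in the labels by its code name only. Each of the 15 groups of clone and treatment held 4 biological replicates, so each treatment had 12 libraries. Wild-type cells were not analysed here, so no value below measures the knockout itself.

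SR proteins bind exonic sequences of a transcript and recruit the spliceosome, through a domain rich in arginine and serine. SRPK kinases phosphorylate that domain in the cytoplasm, which lets the importer TNPO3 carry SR proteins into the nucleus, and CLK kinases phosphorylate it further in the nucleus. The hnRNPs coat nascent RNA, and several of them, such as hnRNP A1, oppose SR proteins at splice sites. Many SR protein and hnRNP genes limit their own level by splicing in a poison exon that sends the transcript to nonsense-mediated decay.

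Promoters of the genes that moved together were read from the RefSeq table of build GRCh38.p14, which held 35 of the 38 genes. SRSF2, TRA2A and HNRNPA1 were the others. The sequences below are the 250 bases before the RefSeq start, printed 5′ to 3′ on the strand of the gene. Shown are 2 SR protein genes that rose with topotecan (SRSF6 and SRSF7). Also shown are 3 hnRNP genes that fell with the combination (HNRNPA3, HNRNPC and HNRNPM). In the GENCODE annotation HNRNPA3 starts at chr2:177212563 and HNRNPM at chr19:8444767, upstream of their RefSeq starts. Most of their printed stretches, with every marked motif, therefore lies inside the gene as GENCODE annotates it. The HNRNPC stretch also overlaps its GENCODE gene, which starts at chr14:21269494, in part. Capitals mark a CCAAT box (CCAAT), an E box (CACGTG), a GC box (GGGCGG) or an NRF1 site on either strand.
SRSF6, chr20:43457646-43457895, plus strand: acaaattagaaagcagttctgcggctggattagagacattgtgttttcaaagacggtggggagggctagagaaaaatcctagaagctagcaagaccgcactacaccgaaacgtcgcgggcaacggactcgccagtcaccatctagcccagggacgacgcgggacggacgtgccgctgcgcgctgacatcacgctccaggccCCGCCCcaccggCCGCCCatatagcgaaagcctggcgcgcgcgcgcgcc
SRSF7, chr2:38751495-38751744, minus strand: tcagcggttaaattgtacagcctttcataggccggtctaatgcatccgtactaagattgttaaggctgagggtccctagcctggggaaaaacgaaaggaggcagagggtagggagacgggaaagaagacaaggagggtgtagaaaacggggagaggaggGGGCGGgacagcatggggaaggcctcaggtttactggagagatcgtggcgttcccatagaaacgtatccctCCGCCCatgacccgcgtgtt
HNRNPA3, chr2:177212544-177212793, plus strand: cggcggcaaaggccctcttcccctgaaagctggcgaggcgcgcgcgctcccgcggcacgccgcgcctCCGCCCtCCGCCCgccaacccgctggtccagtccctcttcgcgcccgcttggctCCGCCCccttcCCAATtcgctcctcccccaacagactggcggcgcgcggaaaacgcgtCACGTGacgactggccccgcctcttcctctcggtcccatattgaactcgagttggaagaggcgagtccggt
HNRNPC, chr14:21269443-21269692, minus strand: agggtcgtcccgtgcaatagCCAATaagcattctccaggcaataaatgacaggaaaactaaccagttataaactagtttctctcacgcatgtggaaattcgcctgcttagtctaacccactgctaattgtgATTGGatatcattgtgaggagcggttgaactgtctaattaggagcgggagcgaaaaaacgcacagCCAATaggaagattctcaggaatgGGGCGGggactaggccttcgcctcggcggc
HNRNPM, chr19:8444725-8444974, plus strand: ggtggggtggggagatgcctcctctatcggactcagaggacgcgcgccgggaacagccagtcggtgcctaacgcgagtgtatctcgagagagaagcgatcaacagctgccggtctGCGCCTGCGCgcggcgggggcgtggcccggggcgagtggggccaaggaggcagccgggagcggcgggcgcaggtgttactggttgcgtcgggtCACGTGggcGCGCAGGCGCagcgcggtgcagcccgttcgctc
The SRSF6 stretch held 2 GC boxes and so did that of SRSF7. HNRNPA3 carried 1 CCAAT box, 1 E box and 3 GC boxes, HNRNPC had 3 CCAAT boxes and 1 GC box, and HNRNPM had 1 E box and 2 NRF1 sites.

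Motifs were counted per class over the whole window of 250 bases before to 50 after the RefSeq start. Both strands were searched, with each motif counted on its own whether or not it overlapped another. The CCAAT box was present in 11 of 17 hnRNP promoters, 2 of 12 SR protein promoters and 1 of 6 kinase promoters, against 35.7% of all 27305 promoters. The E box was present in 7 of 17 hnRNP promoters, 0 of 12 SR protein promoters and 2 of 6 kinase promoters, against 7.435% of all. GC boxes were present in 13 of 17 hnRNP, 6 of 12 SR protein and 4 of 6 kinase promoters, against 44.59% of all. NRF1 sites were present in 1 of 17 hnRNP, 3 of 12 SR protein and 2 of 6 kinase promoters, against 6.285% of all. These are matches of letters and are given as a description.

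All 38 genes passed the low-count filter, and 37 of them had a mean log2 CPM of at least 5. CPM is counts scaled to a common library total, so a level is a share of the library. Totals ran from 4.62 to 20.9 M counts (median 11.4), and the 38 genes together took 1.36 to 1.69% of the counts. In 14 libraries (10 of clone C6 and 4 of clone G6; 2 untreated, 3 DMSO, 2 topotecan, 3 OL9-119 and 4 combination) fewer than 20000 genes were expected at a common depth of 4.5 M counts. All 7 HEK293 markers examined had a median above 1 CPM, and PTPRC (blood cells), DCN (fibroblasts) and TTR (hepatocytes) had a median of 0. The targeted gene TDP1 was counted at 17.8 to 42.3 CPM, which does not test the edit, since a frameshift need not remove the transcript.

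Per kb of transcript, HNRNPA2B1 and HNRNPA1 were the highest of the 38 genes in DMSO, at 420 and 404 CPM per kb (mean of 12 libraries), followed by HNRNPK at 276 and HNRNPM at 256. The median was 163 CPM per kb among hnRNPs, 98.96 among SR proteins and 31.2 among the kinases. SRSF9 was the highest SR protein gene at 157 CPM per kb, and SRSF12 was the lowest of all 38 at 8.37. Lengths are those of annotated coding transcripts, so these levels are approximate.

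With topotecan, each SR protein gene that passed the test rose, and all but 1 of the hnRNP genes that passed it fell. Of the 38 genes, 15 passed against DMSO (7 higher, 8 lower). Over all 18985 genes tested, 15.3% passed (5.99% higher and 9.35% lower). Over the 6959 genes at a mean log2 CPM of 5 or more (below, highly expressed genes) 26.8% passed, 8.97% higher and 17.8% lower. The test throughout is edgeR's quasi-likelihood F test on the mean of the within-clone differences, with Benjamini-Hochberg adjusted p under 0.05 over all genes tested. Changes are log2 fold changes ± SE. Each library is a bulk of cells, so fewer cells of a kind and less RNA per cell cannot be told apart. The treatment comparisons with DMSO share the same DMSO libraries, so they are not independent of each other. Overlap of libraries between groups was examined for members only. The share of all genes that separate likewise was not counted, so separation is given as a description.

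Of 14 SR protein genes, 5 rose with topotecan and 0 fell. SRSF6 (ENSG00000124193, chr20:43457928-43464247, plus strand, GRCh38 as in GENCODE 29), an SR protein that binds exonic enhancers, had 242 CPM at the lowest, 285 at the median and 423 at the highest in the 12 DMSO libraries. With topotecan these were 307, 355 and 523 CPM. The 4 topotecan libraries lay above the 4 DMSO libraries in all 3 clones, although the pooled ranges overlap, with clone G6 highest. The change was 0.34 ± 0.06 (adjusted p = 1.41e-05). SRSF7, which also takes part in mRNA export, went from 250, 267 and 306 CPM to 276, 332 and 367 CPM (lowest, median, highest). Its groups separated in 2 of 3 clones, and the change was 0.26 ± 0.03 (adjusted p = 1.96e-08). SRSF2 (0.22 ± 0.05), SRSF8 (0.20 ± 0.05) and SRSF5 (0.19 ± 0.04) also rose. The remaining 9 SR protein genes did not pass, from SRSF12 at -0.19 ± 0.08 to TRA2A at 0.07 ± 0.06. The median over the 14 was 0.03, close to the 0.02 over all genes tested, and it was -0.005 over highly expressed genes.

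Among the kinases SRPK2 (ENSG00000135250, chr7:105110704-105399308, minus strand), an SR protein kinase of the cytoplasm, fell the most of all 38 genes. In DMSO its 4 libraries had 149, 157, 135 and 143 CPM in clone C6, 134, 127.98, 135 and 133 in clone F7, and 103.6, 129, 115 and 96.1 in clone G6. With topotecan they had 109.5, 92.2, 100.5 and 105 in C6, 94.0, 89.7, 100.3 and 94.5 in F7, and 78.1, 67.9, 72.9 and 68.4 in G6. Topotecan libraries lay below DMSO libraries in all 3 clones. The change was -0.55 ± 0.05 (adjusted p = 1.55e-12). SRPK2 spans 289 kb, and 52.8% of the 1285 tested genes spanning at least 200 kb passed as lower in this comparison; the part of gene span in the change of SRPK2 was not tested. CLK4, a nuclear SR protein kinase, rose by 0.19 ± 0.06 (adjusted p = 0.03), a call that was kept under 15 of 22 alternative settings. CLK1 (0.17), CLK2 (0.09), CLK3 (0.18) and SRPK1 (-0.19) did not pass.

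Of 18 hnRNP genes, 7 fell and 1 rose with topotecan, and the median was -0.11. HNRNPA1 (ENSG00000135486, chr12:54280193-54287088, plus strand), a repressor of exon inclusion, went from 1378, 1704 and 1939 CPM in DMSO (lowest, median, highest) to 1245, 1452 and 1702 CPM, and topotecan libraries lay below DMSO libraries in all 3 clones. The change was -0.19 ± 0.03 (adjusted p = 9.35e-07). HNRNPA2B1 (-0.21 ± 0.04), HNRNPR (-0.20 ± 0.04), HNRNPDL (-0.20 ± 0.05) and HNRNPA3 (-0.18 ± 0.04) fell by similar amounts. HNRNPD (-0.13 ± 0.04) and HNRNPC (-0.12 ± 0.04) fell by less. HNRNPF, which binds G-rich RNA, rose by 0.09 ± 0.03 (adjusted p = 0.0347). The calls of HNRNPD and HNRNPF were kept under 8 and 12 of 22 alternative settings. The remaining 10 ranged from HNRNPLL at -0.18 ± 0.07 to HNRNPA0 at 0.18 ± 0.07. Without clone G6 the count over all 38 genes was 8.

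**Figure D1:**
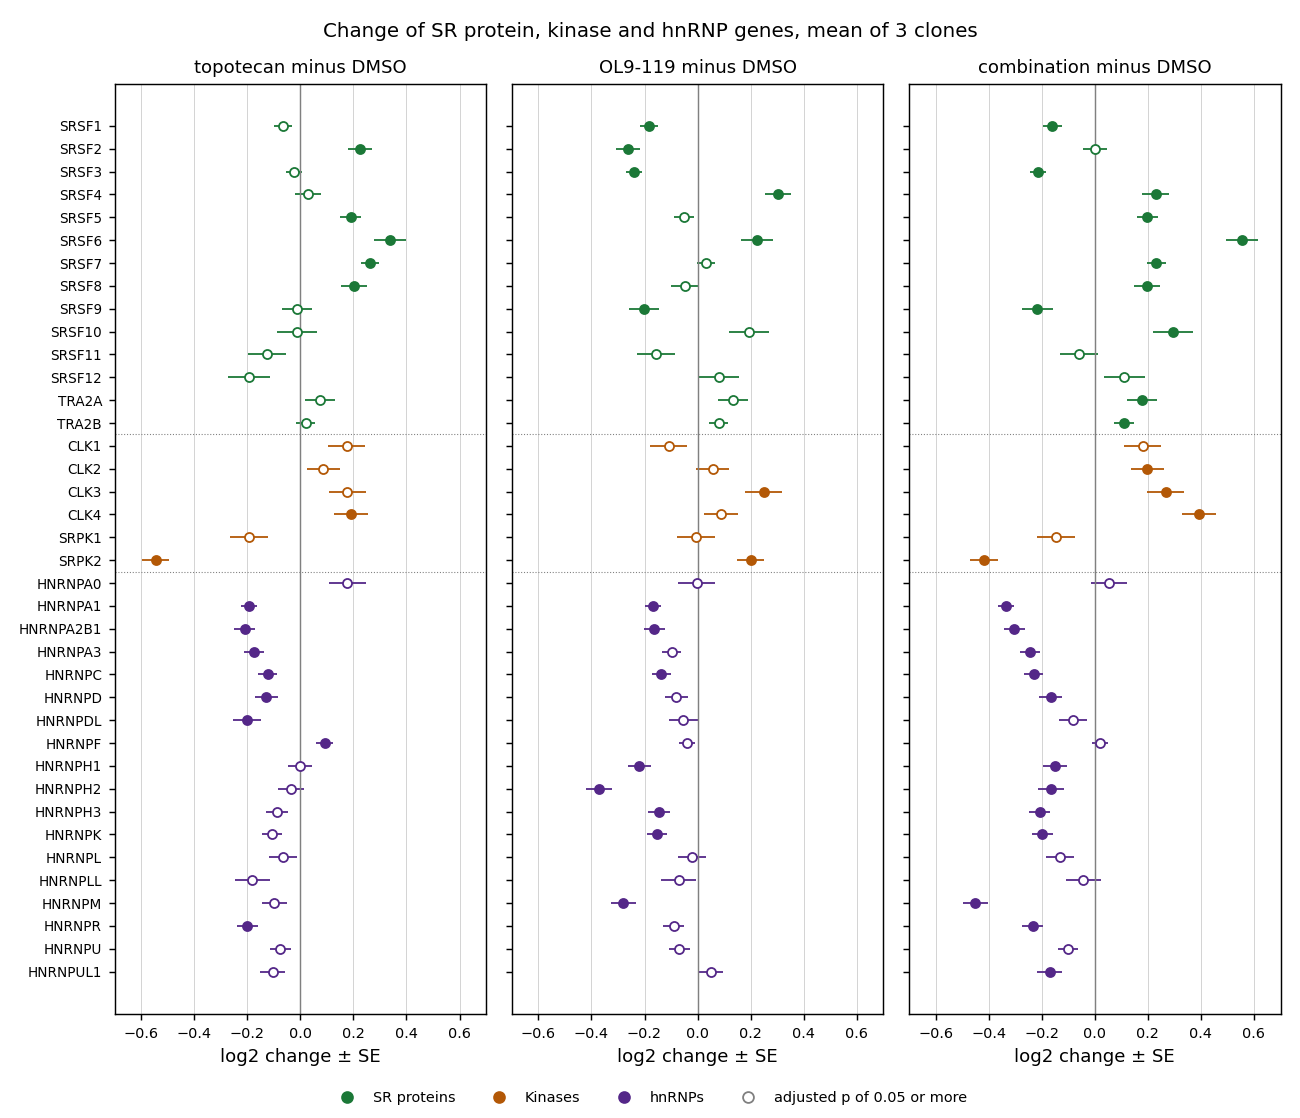
Log2 change (x axis, points with SE bars) of each of the 38 genes (y axis) for the 3 treatments against DMSO, averaged over 3 clones of 4 libraries per group; filled points have an adjusted p under 0.05. SRSF6 lies to the right of 0 in all 3 panels (0.34, 0.22 and 0.56), HNRNPA1 to the left in all 3 (-0.19, -0.17 and -0.33), and SRPK2 and SRSF2 change side between topotecan and OL9-119.

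With OL9-119 alone, 16 of the 38 genes passed against DMSO (4 higher, 12 lower), where 9.47% of all genes tested did (4.47% higher, 5% lower) and 17.5% of highly expressed genes (6.67% higher, 10.8% lower). SR protein genes moved both ways. SRSF4, a long member of the family, rose from 150, 171 and 200.4 CPM in DMSO (lowest, median, highest) to 184, 205 and 254 CPM, with OL9-119 libraries above DMSO libraries in all 3 clones. Its change was 0.30 ± 0.05 (adjusted p = 9.22e-06). SRSF6 rose by 0.22 ± 0.06. SRSF3, the smallest SR protein and a regulator of its own poison exon, fell from 444, 543 and 619 CPM to 397, 447 and 504 CPM, with separate groups in 2 of 3 clones and a change of -0.24 ± 0.03 (adjusted p = 5.46e-08). SRSF2 (-0.26 ± 0.05), SRSF9 (-0.20 ± 0.06) and SRSF1 (-0.18 ± 0.04) also fell.

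Both kinases that passed with OL9-119 rose. CLK3 rose by 0.25 ± 0.07 (adjusted p = 0.0119). SRPK2 rose by 0.20 ± 0.05 (adjusted p = 0.00575), from a median of 133 CPM in DMSO to 149, with overlapping groups in 2 of 3 clones. Its values in C6 were 161, 142, 134 and 184 CPM, those in F7 155, 146, 152 and 162, and those in G6 154, 129.8, 135 and 125.6.

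Of the 18 hnRNP genes, 8 fell with OL9-119 and 0 rose. Their median was -0.09, against 0.01 over all genes tested and -0.02 over highly expressed genes. HNRNPH2, of the hnRNP F and H family that binds G-rich RNA, fell the most. It had 146, 125.95, 119 and 140 CPM in DMSO and 97.5, 85.3, 90.1 and 98.3 CPM with OL9-119 in clone C6. OL9-119 libraries lay below DMSO libraries in all 3 clones, and the change was -0.37 ± 0.05 (adjusted p = 5.59e-08). HNRNPH1 (-0.22 ± 0.04) and HNRNPH3 (-0.15 ± 0.04) of the same family fell too, while HNRNPF was at -0.04 ± 0.03 and did not pass. HNRNPM (-0.28 ± 0.05), HNRNPA1 (-0.17 ± 0.03), HNRNPA2B1 (-0.16 ± 0.04), HNRNPK (-0.15 ± 0.04) and HNRNPC (-0.14 ± 0.04) were the others. Without clone F7 the count over all 38 genes was 10, and without the libraries of low detection it was 17.

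With the combination, 27 of the 38 genes passed against DMSO (11 higher, 16 lower), where 21.2% of all genes tested did (9.52% higher, 11.7% lower) and 35.1% of highly expressed genes (12.4% higher, 22.7% lower). SR protein genes passed as 8 higher and 3 lower, kinases as 3 higher and 1 lower, and hnRNPs as 0 higher and 12 lower. The class medians were 0.14, 0.19 and -0.17, against -0.01 over all genes tested and -0.04 over highly expressed genes.

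SRSF6 had the highest change of the 38 genes. Its combination libraries had 383, 384, 338 and 411 CPM in clone C6, 396, 427, 415 and 426 in F7, and 563, 522, 522 and 474 in G6. In DMSO they had 254, 281, 242 and 246 in C6, 288, 269, 263 and 297 in F7, and 423, 373, 349 and 303 in G6. The groups were separate in all 3 clones, and the change was 0.56 ± 0.06 (adjusted p = 5.04e-11), a level 1.47 times that in DMSO. SRSF10 (0.29 ± 0.08), SRSF4 (0.23 ± 0.05), SRSF7 (0.23 ± 0.03), SRSF5 (0.20 ± 0.04), SRSF8 (0.20 ± 0.05), TRA2A (0.18 ± 0.06) and TRA2B (0.11 ± 0.04) rose as well. TRA2A and TRA2B are homologues of the fly sex-determination factor transformer-2. SRSF9 (-0.22 ± 0.06), SRSF3 (-0.21 ± 0.03) and SRSF1 (-0.16 ± 0.04) fell, and SRSF2 was at 0.00 ± 0.05.

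CLK4 rose from 27.8, 34.2 and 46.6 CPM in DMSO (lowest, median, highest) to 37.9, 43.04 and 58.2 CPM, with separate groups in all 3 clones and a change of 0.39 ± 0.06 (adjusted p = 2.18e-06). CLK3 (0.27 ± 0.07) and CLK2 (0.20 ± 0.06) rose, and CLK1 was at 0.18 ± 0.07 (adjusted p = 0.0566). SRPK2 fell by 0.42 on the log2 scale (SE 0.05, adjusted p = 3.88e-09), and 50.3% of the genes spanning at least 200 kb passed as lower here. SRPK1 did not pass (-0.15 ± 0.07).

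HNRNPM (ENSG00000099783, chr19:8444767-8489114, plus strand), a regulator of exon skipping, fell the most of the 38 genes. Its combination libraries had 505, 510, 566 and 492 CPM in C6, 462, 485, 460 and 450 in F7, and 411, 443, 466 and 516 in G6. The DMSO libraries had 718, 675, 804 and 743 in C6, 630, 604, 595 and 604 in F7, and 559, 595, 720 and 644 in G6. The groups were separate in all 3 clones, and the change was -0.45 ± 0.05 (adjusted p = 4.66e-11), or 26.8% lower. HNRNPA1 fell from a median of 1704 to 1424 CPM, a change of -0.33 ± 0.03 (adjusted p = 1.26e-13). HNRNPA2B1 (-0.30 ± 0.04), HNRNPA3 (-0.24 ± 0.04), HNRNPC (-0.23 ± 0.04) and HNRNPR (-0.23 ± 0.04) followed, and the first 3 of these were separate from DMSO in all 3 clones. HNRNPH3, HNRNPK, HNRNPUL1, HNRNPD, HNRNPH2 and HNRNPH1 fell by 0.15 to 0.21 on the log2 scale. The 6 that did not pass were HNRNPA0, HNRNPDL, HNRNPF, HNRNPL, HNRNPLL and HNRNPU, from -0.13 to 0.05.

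**Figure D2:**
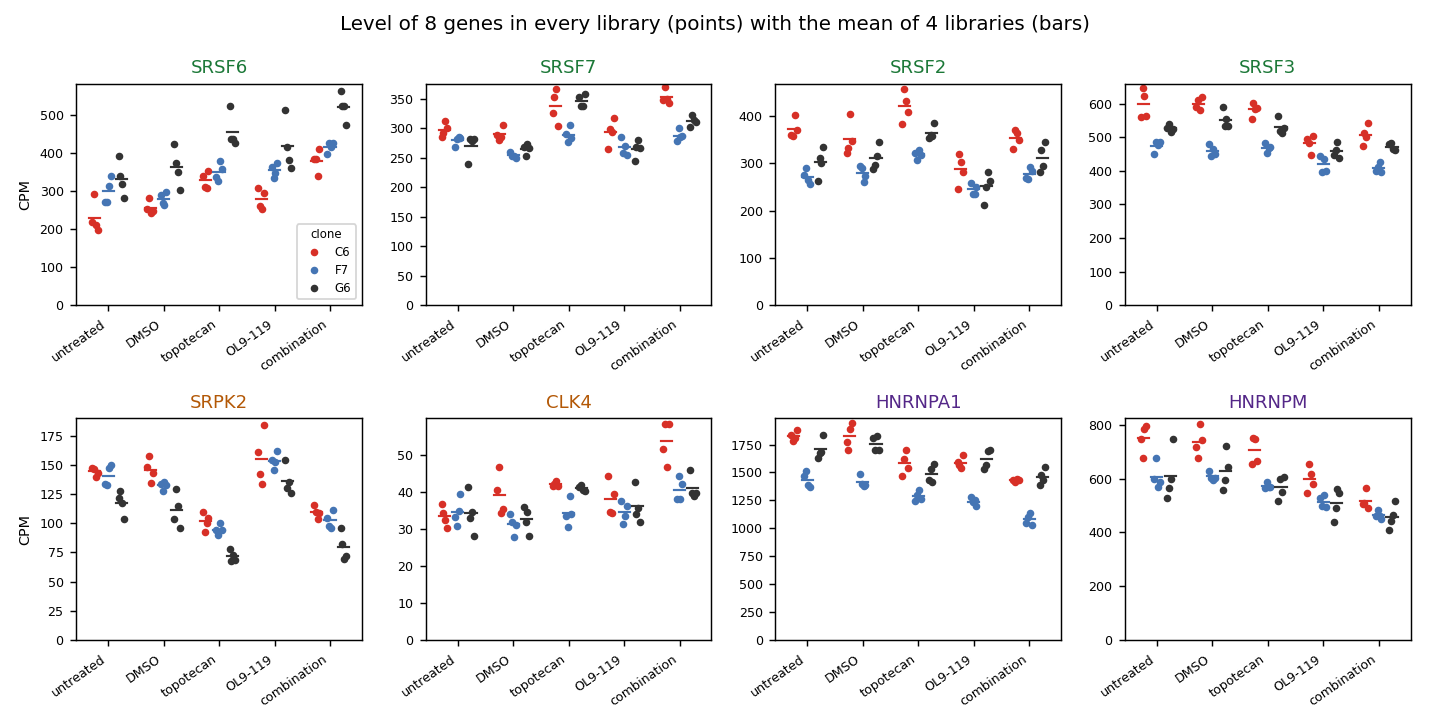
CPM (y axis, from 0) of 8 genes in each of the 60 libraries (points, coloured by clone) by treatment (x axis), with the mean of 4 libraries as a bar. SRSF6 is highest and HNRNPA1 and HNRNPM lowest under the combination, with combination medians of 420.3, 1424 and 475 CPM, and SRPK2 is low in both treatments that contain topotecan (medians 93.1 and 100.7 CPM).

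Read across the 3 comparisons with DMSO, 1 gene passed as higher in all (SRSF6) and 3 passed as lower in all (HNRNPA1, HNRNPA2B1 and HNRNPC). SRSF2 rose with topotecan and fell with OL9-119, and SRPK2 fell with topotecan and rose with OL9-119. No direct test of topotecan against OL9-119 was made. Of the rest, 8 genes passed in OL9-119 and the combination as lower (SRSF1, SRSF3, SRSF9, HNRNPH1, HNRNPH2, HNRNPH3, HNRNPK and HNRNPM), and 4 passed in topotecan and the combination as higher (SRSF5, SRSF7, SRSF8 and CLK4). Another 8 passed in none in the main model: SRSF11, SRSF12, CLK1, SRPK1, HNRNPA0, HNRNPL, HNRNPLL and HNRNPU. Some of these 8, CLK1 and SRPK1 among them, passed under alternative settings given below.

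The mean of log2(CPM + 1) over each class was taken in every library, relative to the DMSO mean of its clone. For the 18 hnRNPs the 12 combination libraries lay between -0.22 and -0.10 (median -0.18) and the 12 OL9-119 libraries between -0.20 and -0.03 (median -0.12), all below 0, and 11 of 12 topotecan libraries lay below 0 (median -0.10). For the 14 SR proteins all 12 topotecan libraries lay above 0 (0.005 to 0.14, median 0.06). So did all 12 combination libraries (0.003 to 0.17, median 0.12), but only 5 of 12 OL9-119 libraries (median -0.02). The DMSO libraries themselves ran from -0.11 to 0.11 for SR proteins, and the untreated libraries from -0.14 to 0.09 (median -0.05). The topotecan and combination ranges overlap both. The DMSO mean of a clone is shared by all its treatments. The SR protein mean minus the hnRNP mean was 0.19 to 0.34 in the combination (median 0.28), 0.09 to 0.26 in topotecan (median 0.16), 0.00 to 0.20 in OL9-119 (median 0.11) and -0.09 to 0.08 in DMSO. It was above 0 in 12 of 12 libraries of each of the 3 treatments and in 3 of 12 untreated libraries. The kinase mean lay above 0 in 5 of 12 topotecan libraries (median -0.03). It did so in 10 of 12 OL9-119 libraries and 10 of 12 combination libraries (median 0.09 in each). No test was run on these class means, since the genes were listed with earlier results of these data known.

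**Figure D3:**
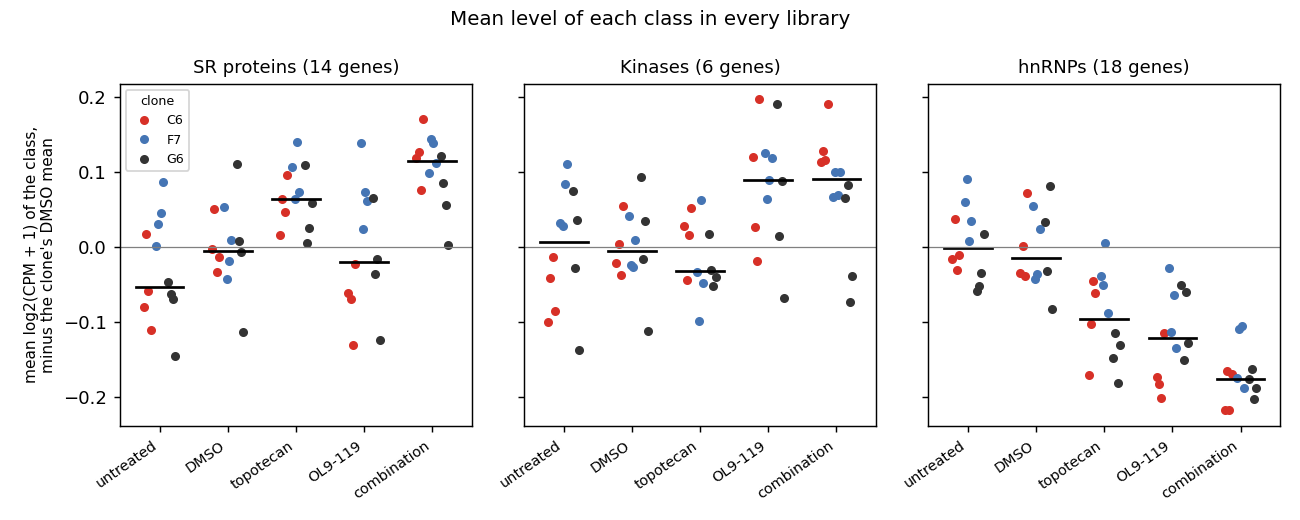
Mean log2(CPM + 1) of each class in every library minus the DMSO mean of its clone (y axis), by treatment (x axis), with 12 libraries per treatment as points coloured by clone and the median as a bar. The hnRNP medians fall from about 0 in untreated and DMSO libraries to -0.10, -0.12 and -0.18 in topotecan, OL9-119 and the combination. In that order the SR protein medians are 0.06, -0.02 and 0.12, against -0.05 in untreated and -0.005 in DMSO libraries. The kinase medians are -0.03, 0.09 and 0.09 in the same order.

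Set against topotecan alone, the combination differed in 11 of the 38 genes (5 higher, 6 lower), where 6.78% of all genes tested passed (3.33% higher, 3.45% lower). Among highly expressed genes 919 of 6959 passed (385 higher, 534 lower). HNRNPM was lower by a log2 change of -0.35 ± 0.05 (adjusted p = 2.64e-07). SRSF2 (-0.22 ± 0.05), SRSF9 (-0.20 ± 0.06), SRSF3 (-0.19 ± 0.03), HNRNPH1 (-0.15 ± 0.04) and HNRNPA1 (-0.14 ± 0.03) were also lower. SRSF10 (0.31 ± 0.08), SRSF12 (0.30 ± 0.08), SRSF6 (0.22 ± 0.06), CLK4 (0.20 ± 0.06) and SRSF4 (0.20 ± 0.05) were higher. This count changed when single clones or libraries were left out: it was 7 without replicate 2 of clone F7, 6 without clone C6, 2 without clone F7 and 9 without the libraries of low detection. The call of CLK4 was kept under 10 of 22 alternative settings.

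Set against OL9-119 alone, the combination differed in 15 genes (8 higher, 7 lower), where 12.7% of all genes tested passed (5% higher, 7.72% lower). Among highly expressed genes 1467 of 6959 passed (547 higher, 920 lower). SRPK2 was lower by -0.62 ± 0.05 (adjusted p = 2.64e-14). SRSF6 (0.33 ± 0.06), SRSF2 (0.26 ± 0.05), SRSF5 (0.25 ± 0.04), SRSF8 (0.25 ± 0.05), SRSF7 (0.20 ± 0.03), CLK4 (0.30 ± 0.06), CLK1 (0.29 ± 0.07) and HNRNPH2 (0.21 ± 0.05) were higher. The 6 hnRNPs that were lower were HNRNPUL1 (-0.22 ± 0.05), HNRNPA1 (-0.17 ± 0.03), HNRNPM (-0.17 ± 0.05), HNRNPA2B1, HNRNPA3 and HNRNPR (each -0.14 ± 0.04). Without the 14 libraries of low detection, 12 genes passed and 2 hnRNPs were lower.

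The interaction of topotecan and OL9-119 on the log2 scale, which asks whether the combination differed from the sum of the single changes, passed for 0 of the 38 genes in edgeR and in DESeq2 (5 at an unadjusted p under 0.05), where 0.0316% of all genes passed. HNRNPH2 had the smallest p, with 0.24 ± 0.07 (adjusted p = 0.477). DMSO against no treatment passed for 0 genes in both tools (1 unadjusted, SRSF5), where 0.0158% of all genes passed.

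No difference between clones in the response of these genes passed the test. Dependence of the change on the clone passed for 0 of 38 genes for each treatment in edgeR (3, 3 and 2 at an unadjusted p under 0.05; no other tool was run), where 0.137%, 0.0263% and 0.169% of all genes passed for topotecan, OL9-119 and the combination. The change of SRSF6 with the combination was 0.57, 0.57 and 0.52 in C6, F7 and G6, and that of HNRNPM was -0.50, -0.39 and -0.46. SRPK2 changed with topotecan by -0.52, -0.49 and -0.63. For each gene that passed, the 3 clones had changes of 1 sign, which a test on their mean favours.

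The clones themselves differed in the DMSO libraries, and hnRNP transcripts were lower in clone F7. Between C6 and F7, 27 of the 38 genes passed (25 higher in C6, 2 lower), where 39.5% of all genes tested did (20.4% higher, 19.2% lower) and 52.6% of highly expressed genes (34.5% higher, 18.1% lower). Of the hnRNPs 16 of 18 were higher in C6 and 1, HNRNPH3, was lower, with a median of 0.39 against -0.05 over all genes and 0.12 over highly expressed genes. HNRNPA2B1 had 1828, 1856, 1879 and 2084 CPM in C6 and 1397, 1278, 1203 and 1241 CPM in F7, and the difference was 0.58 ± 0.07 (adjusted p = 1.07e-09). HNRNPA3 had 595, 594, 584 and 618 CPM in C6 and 428, 393, 400 and 437 CPM in F7, a difference of 0.53 ± 0.06. SRSF12 had the largest difference, 0.98 ± 0.14, with a mean of 39.5 CPM ± 8.85 (SD, n = 4) in C6 and 19.9 CPM ± 0.969 in F7. For these 3 genes the C6 and F7 libraries did not overlap, and the share of all genes for which this held was not counted.

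Between F7 and G6, 16 genes passed (1 higher in F7, 15 lower), where 17.1% of all genes tested did (6.89% higher, 10.2% lower) and 26.5% of highly expressed genes (8.45% higher, 18.1% lower). Of the hnRNPs 11 of 18 were lower in F7 and 0 higher, led by HNRNPA3 (-0.57 ± 0.06), HNRNPD (-0.47 ± 0.07) and HNRNPDL (-0.44 ± 0.09). The hnRNP median was -0.26, against 0.01 over all genes and -0.08 over highly expressed genes. SRSF12 (-0.64 ± 0.13), SRSF5 (-0.49 ± 0.07), SRSF6 (-0.38 ± 0.10) and SRSF3 (-0.26 ± 0.05) were lower in F7 too. SRPK2 was the gene higher in F7 (0.26 ± 0.09), a call that was kept under 10 of 18 alternative settings and lost without any 1 replicate of F7. Without the libraries of low detection 2 genes were higher in F7. Between C6 and G6, 11 genes passed (7 higher in C6, 4 lower), where 24.4% of all genes did, so the count was near the background. SRSF6 (-0.50 ± 0.10) and SRSF8 (-0.38 ± 0.09) were lower in C6, and HNRNPA2B1 (0.43 ± 0.07), HNRNPLL (0.49 ± 0.12) and SRPK2 (0.40 ± 0.09) were higher. When only the libraries compared were fitted, 5 genes passed between C6 and G6. Libraries of low detection fell in C6 and G6 and not in F7; without them 26, 18 and 11 genes passed between C6 and F7, F7 and G6, and C6 and G6.

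**Figure D4:**
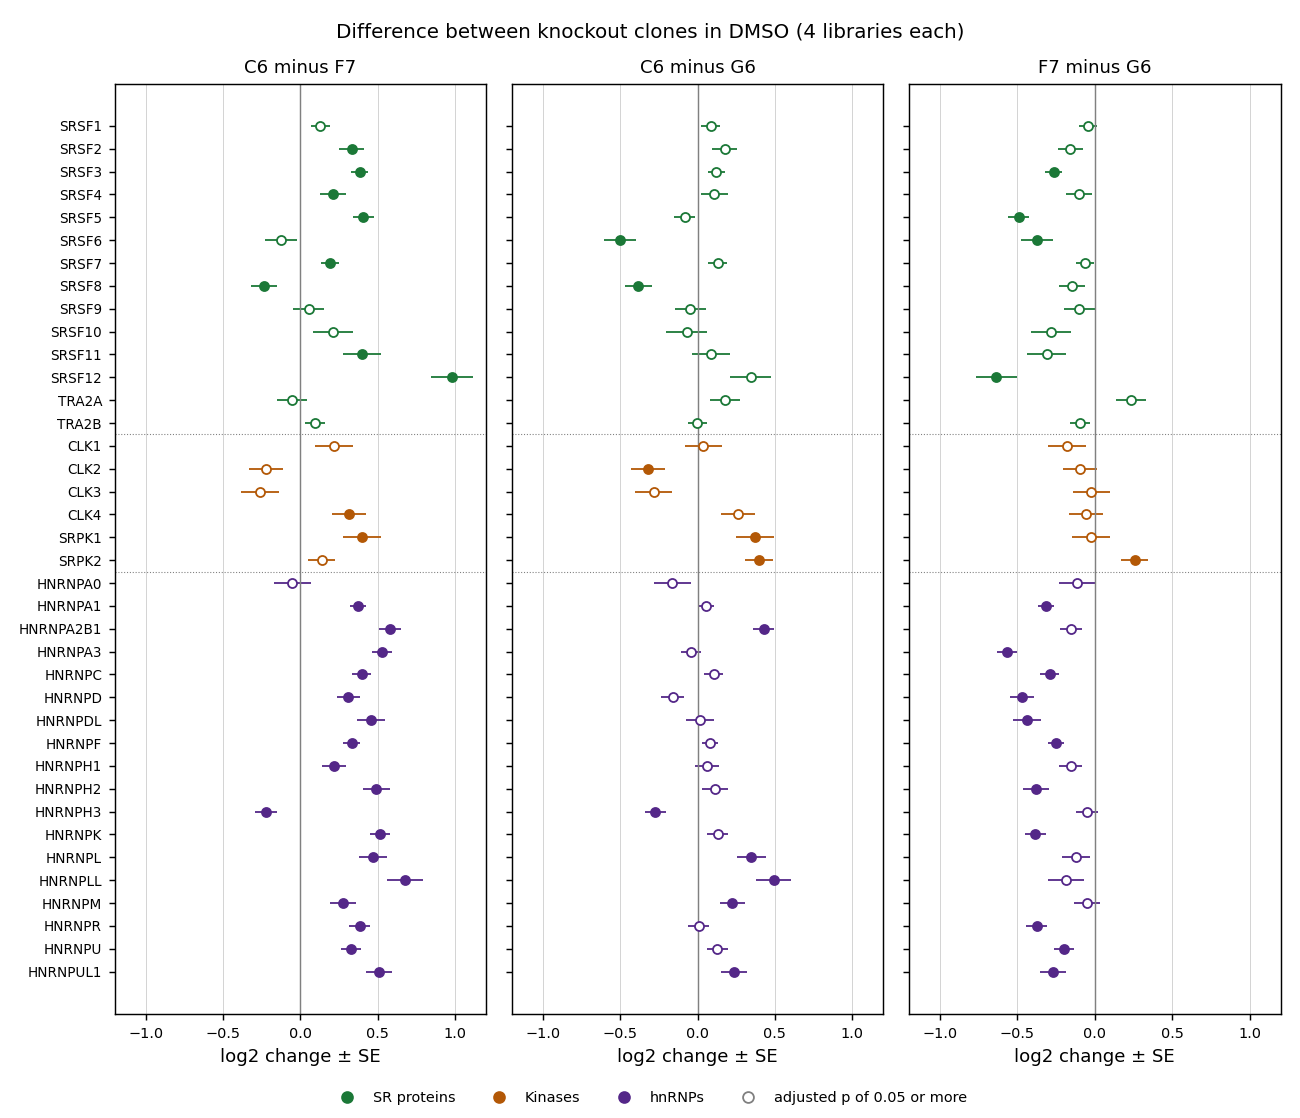
Difference in log2 level (x axis, points with SE bars) of each of the 38 genes (y axis) between the clones in DMSO, with 4 libraries per clone; filled points have an adjusted p under 0.05. Most hnRNPs lie right of 0 in C6 minus F7 (median 0.39) and all 18 lie left of 0 in F7 minus G6 (median -0.26), and the C6 minus G6 panel is closer to 0 (median 0.09).

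Genes of the same machinery outside the 38 that passed with the combination were mostly lower. Of 9 other hnRNP-type genes 0 rose and 4 fell with the combination, among them RBMX (-0.41 ± 0.04), RALY (-0.30 ± 0.06) and PTBP1 (-0.20 ± 0.05), the polypyrimidine tract binding protein. Of 30 other splicing regulators 1 rose and 12 fell, where 9.52% of all genes tested passed as higher and 11.7% as lower (12.4% and 22.7% of highly expressed genes). SFPQ, a paraspeckle protein, changed by -0.60 ± 0.03 (adjusted p = 5.92e-22), RBFOX2 by -0.44 ± 0.04 and MBNL1 by -0.64 ± 0.09. In this comparison 50.3% of the genes spanning at least 200 kb passed as lower. The part of gene span in the changes of genes outside the 38 was not tested. SFPQ also fell with topotecan (-0.23 ± 0.03) and with OL9-119 (-0.42 ± 0.03). Of 43 SR-related and spliceosome genes 3 rose and 17 fell with the combination, including SF3B3 (-0.44 ± 0.04), the helicase DHX15 (-0.32 ± 0.04) and SNRPD1 (-0.36 ± 0.06), while PRPF4 rose by 0.25 ± 0.04. TNPO3, the importer of SR proteins, fell by 0.20 with topotecan and by 0.18 with the combination on the log2 scale. With topotecan 2 of the 43 rose and 7 fell, where 5.99% of all genes tested were higher and 9.35% lower. Among highly expressed genes 8.97% were higher and 17.8% lower, so the shares among the 43 were near that background. With OL9-119 0 rose and 9 fell, where 4.47% of all genes were higher and 5% lower (6.67% and 10.8% of highly expressed genes).

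Of 12 other kinases and phosphatases of SR proteins, 2 rose and 1 fell with the combination, where 21.2% of all genes tested passed in either direction (35.1% of highly expressed genes), so the count was near the background. PIM1 rose by 0.32 ± 0.07 and DYRK1A fell by 0.29 on the log2 scale. Of 14 mRNA decay genes 1 rose (UPF3B, 0.22 ± 0.07) and 1 fell (SMG6, -0.35 ± 0.06), a share no higher than that background. GENCODE annotates a nonsense-mediated decay transcript for 14 of 14 SR proteins, 5 of 6 kinases and 13 of 18 hnRNPs, against 40.8% of the 14685 protein-coding genes tested. The counts are per gene, so a change in productive transcript cannot be told apart from one in a decay transcript or in retained introns. Opposite-strand neighbours share exon bases with some of these genes. GATC with SRSF9 (46.2% of its exon bases), MFSD11 with SRSF2 (36.7%), COX20 with HNRNPU (15.6%), CBX3 with HNRNPA2B1 (3.97%) and EDC3 with CLK3 (3.43%) are among them, and the strand setting of the counting is not given in the sources used here. CBX3 had a median level of 26.3% of that of HNRNPA2B1 and changed by -0.20 with OL9-119 (adjusted p = 0.0153) and by -0.17 with the combination (adjusted p = 0.0214); its part in the values of HNRNPA2B1 was not tested. Annotated processed copies had at most 2.87% of the level of their parent gene (HNRNPA3), and 74 copies of HNRNPA1 had 0.48 to 2.18%.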

How the data were processed

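Poly(A) RNA of 60 libraries was sequenced after a directional library kit, per the labels. The authors deposited 1 table of raw counts per Ensembl gene, without scaling. Build hg38, STAR 2.7.8, FastQC 0.11.9 and Picard 2.26.6 are listed in the submitters' processing notes. Which program counted reads, and on which strand, is not given in the sources used here. Genes past filterByExpr (18985) were tested in R 4.3.3 with edgeR 4.0.16, by a quasi-likelihood F test (2-sided) after TMM scaling, in a model with 1 mean for each of 15 groups. Treatment comparisons average the within-clone differences, and adjusted p values are Benjamini-Hochberg over all genes, with a threshold of 0.05. CPM uses TMM library sizes. The member genes and pathway lists were chosen with earlier results of these data known. In each comparison between treatments the members past the threshold are named, up to 8 of them with CPM values. Between clones only some of the members past the threshold are named. Of each pathway list up to 4 passing genes are named in a comparison. Alternatives were RLE size factors, DESeq2 1.42.0, no low-count filter, a replicate block, library-name prefix, left-out replicates, clones and libraries of low detection (the last chosen after seeing the data), and fits of only the libraries compared. The script was tested on simulated data. Deviations from the group means correlated over 0.1 in 56 of 120 same-numbered pairs of a clone (median 0.08). Among other-numbered pairs they did so in 78 of 360 (median -0.02). The main model does not pair libraries by number, and the replicate block is the alternative that does.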

Additional observations from a re-analysis of the deposited data

Results flagged for a closer look

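Of 75 groups of 4 libraries examined for 1 library far from the others, 1 was flagged, where chance gives about 1 in 20. HNRNPA1 in DMSO in clone F7 had 1489 CPM in replicate 1, against 1395, 1378 and 1385 CPM in replicates 2, 3 and 4. The gap to the nearest library was 0.849 of the group's whole range.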

How the results depend on the processing

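No call of a member gene in any comparison changed sign under an alternative. Of 138 calls, 134 were kept with RLE size factors and with DESeq2, 138 with the library-name prefix as a term and 109 without the filter on low counts. Leaving out the libraries of low detection lost 13 calls, and fitting only the libraries compared lost 15. With a replicate block 84 of 84 treatment calls were kept. In topotecan minus DMSO 23 members passed with it (SR proteins 5 higher, kinases 3 higher and 2 lower, hnRNPs 2 higher and 11 lower). In OL9-119 minus DMSO it gave SR proteins 4 higher and 5 lower, kinases 2 higher and hnRNPs 8 lower. For the combination minus DMSO it gave SR proteins 8 higher and 3 lower, kinases 4 higher and 2 lower, and hnRNPs 14 lower. All 6 kinases, CLK1 and SRPK1 included, thus passed in that comparison. CLK1 passed in it with RLE size factors and DESeq2 too (kinases 4 higher and 1 lower). Same-numbered libraries of a clone share a name prefix whose meaning is not given, and 32 of 60 correlated best with their own number. Leaving out a clone kept 52 to 66 of 84 calls. Without clone C6, 6 members passed in the combination minus topotecan. Without clone F7, 2 passed there and 10 in OL9-119 minus DMSO. Without clone G6, 8 passed in topotecan minus DMSO. In fits of only the libraries compared, 5 passed between C6 and G6. Leaving out 1 replicate of 1 clone at a time gave 12 to 19 members for topotecan, 14 to 18 for OL9-119, 25 to 29 for the combination, 13 to 16 for the combination minus OL9-119 and 7 to 14 for the combination minus topotecan, lowest without F7 replicate 2 and highest without C6 replicate 1. The cause of these differences was not tested. The lowest count of a member in any library was 143 (SRSF12), and over 90 pairs of replicates the variance of the counts of all genes was 2.31 to 58.9 times counting error.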
